A study of Mus musculus with 48 samples.

Results

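The genes examined here encode 7 surface molecules through which a macrophage meets a T cell: the checkpoint ligands Cd274 (PD-L1) and Pdcd1lg2 (PD-L2), the B7-family costimulatory ligands Cd80, Cd86 and Icosl, the receptor Cd40, and the adhesion molecule Icam1. They were taken by symbol from the count table of RAW264.7 cells, a transformed mouse macrophage line, and all 7 were among its 49568 genes. Cells received PBS, or 100 µg/ml of a synthetic peptide of 15 residues covering positions 65 to 79 of an HLA-DR β chain, with or without 5 ng/ml IFN-γ, for 72 h with fresh medium at 48 h. LE (65-79*0301) stands for the lupus-risk sequence, SE (65-79*0401) for the sequence linked to rheumatoid arthritis and PE (65-79*0402) for the protective one. This gave 8 groups, labelled PBS, LE, SE, PE, IFNy, LE+IFNy, SE+IFNy and PE+IFNy, each of 6 libraries of poly(A) RNA, with PBS-treated cells of the same line as the control. All groups share 1 cultured cell line, the labels name no genetic change, and the peptides were added as free linear molecules, not as folded HLA-DR.

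A T cell that recognises antigen on MHC needs a second signal. CD80 and CD86 give it through CD28 and withdraw it through CTLA-4, ICOSL engages ICOS, and PD-L1 and PD-L2 restrain the T cell through PD-1. CD40 takes the signal in the other direction, from CD40 ligand on the T cell into the macrophage, and ICAM-1 holds the contact together by binding LFA-1 and Mac-1. IFN-γ is a well-known inducer of PD-L1, CD40 and MHC in macrophages.

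The replicates fall into 2 series by label: replicates 1 to 3 of each group carry letters and replicates 4 to 6 carry HLA names. In the 24 letter-labelled libraries, 20 well-known IFN-γ target genes were high in every library labelled with IFN-γ and low in every other, so 0 of 24 went against the label. In the HLA-labelled series 12 of 24 did: the libraries labelled LE and PE held the targets at the level of IFN-γ treatment, and those labelled IFNy and SE+IFNy held them at the level of untreated cells. No library was moved to another group. The results below rest on the letter-labelled libraries, and values with the HLA-labelled libraries are given at the end. The letter-labelled libraries held 16.5 to 26.9 M counts (median 22.9 M) and the HLA-labelled ones 14.1 to 42.6 M. All 10 macrophage markers were detected, with a summed level of 9880 to 12400 CPM (counts scaled to a library total of 1000000) without and 7080 to 9540 CPM with IFN-γ. Of 7 T cell markers, 5 (Cd3e, Cd3d, Cd3g, Cd8a and Cd2) stayed at 3 counts or fewer in every letter-labelled library, and the summed level of all 7 was 10.7 to 19.8 CPM without and 17.1 to 29.4 CPM with IFN-γ. Of that sum Lck, a kinase of T cell receptor signalling, made up nearly all, with 26.7 CPM in IFNy. Summed B cell markers reached at most 0.346 CPM, dendritic cell markers 2.44 CPM, fibroblast markers 1.84 CPM and epithelial markers 0.667 CPM. The part of these markers in the results was not tested. In bulk RNA, fewer cells carrying a transcript and less of it per cell cannot be told apart.

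Cd274 lies on chromosome 19 (GRCm38, 29367455 to 29388095, plus strand; ENSMUSG00000016496.7), and Pdcd1lg2 follows on the same strand 22.8 kb further on (29410919 to 29471161; ENSMUSG00000016498.10). Cd80 (16, 38455561 to 38496335, plus) and Cd86 (16, 36603869 to 36666081, minus) share chromosome 16. Cd40 lies on chromosome 2 (165055627 to 165072948, plus), Icam1 on chromosome 9 (21015985 to 21028817, plus) and Icosl on chromosome 10 (78069302 to 78083913, plus). All 7 are annotated as protein-coding. Below stand the bases just upstream of the RefSeq start (GRCm38.p6) of Cd274, the ligand that moved most between peptides, of Cd80, which moved against the other ligands under IFN-γ, and of Icam1, which carries a GAS (gamma-activated sequence) motif. The Cd274 stretch is short because the bases before it lie in the first exon of the neighbouring gene Plgrkt. The Cd80 stretch lies within an intron of the longer GENCODE gene model. Capitals mark the GAS match.
Cd274, chr19:29367391-29367437, plus strand: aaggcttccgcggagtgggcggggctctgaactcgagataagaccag
Cd80, chr16:38458683-38458932, plus strand: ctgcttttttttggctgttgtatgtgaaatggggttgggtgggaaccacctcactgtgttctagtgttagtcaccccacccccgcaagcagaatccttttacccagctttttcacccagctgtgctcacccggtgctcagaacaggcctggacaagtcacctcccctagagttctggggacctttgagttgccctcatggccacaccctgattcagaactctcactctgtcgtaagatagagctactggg
Icam1, chr9:21015690-21015939, plus strand: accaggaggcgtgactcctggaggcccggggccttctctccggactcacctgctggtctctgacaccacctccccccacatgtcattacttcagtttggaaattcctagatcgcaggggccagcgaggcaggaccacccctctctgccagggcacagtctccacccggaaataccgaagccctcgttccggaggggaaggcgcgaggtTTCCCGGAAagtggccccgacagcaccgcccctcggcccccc
RefSeq windows were matched for 5 of the 7 genes (not Cd40 and Cd86). They were searched on both strands over the 250 bases before the start for GAS (TTCNNNGAA), an interferon regulatory factor element (GAAA, any 2 bases, GAAA) and a kappa-B site (GGG, any 3 bases, TTCC), which 7.18%, 3.04% and 4.6% of 27025 mouse promoters hold. Among the 5 windows the single match was the GAS of Icam1, TTCCCGGAA, 42 to 34 bases upstream. A match describes letters, not binding.

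IFN-γ alone moved most of these genes. Against PBS, Cd274, Cd86, Cd40 and Icosl rose and Cd80 fell, 5 of the 6 genes tested, where 18.1% of all 12242 genes tested were called (9.79% higher and 8.28% lower). A gene was called at an edgeR Benjamini-Hochberg adjusted p below 0.05 with a fold above 1.5. The median of the 6 was a log2 fold change of 1.66, beside -0.01 over all genes tested. Pdcd1lg2, the seventh gene, was too low to enter any test. The labels do not say that libraries came from separate cultures, although the study describes biological replicates, so the p-values measure the spread between these libraries.

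**Figure D1:**
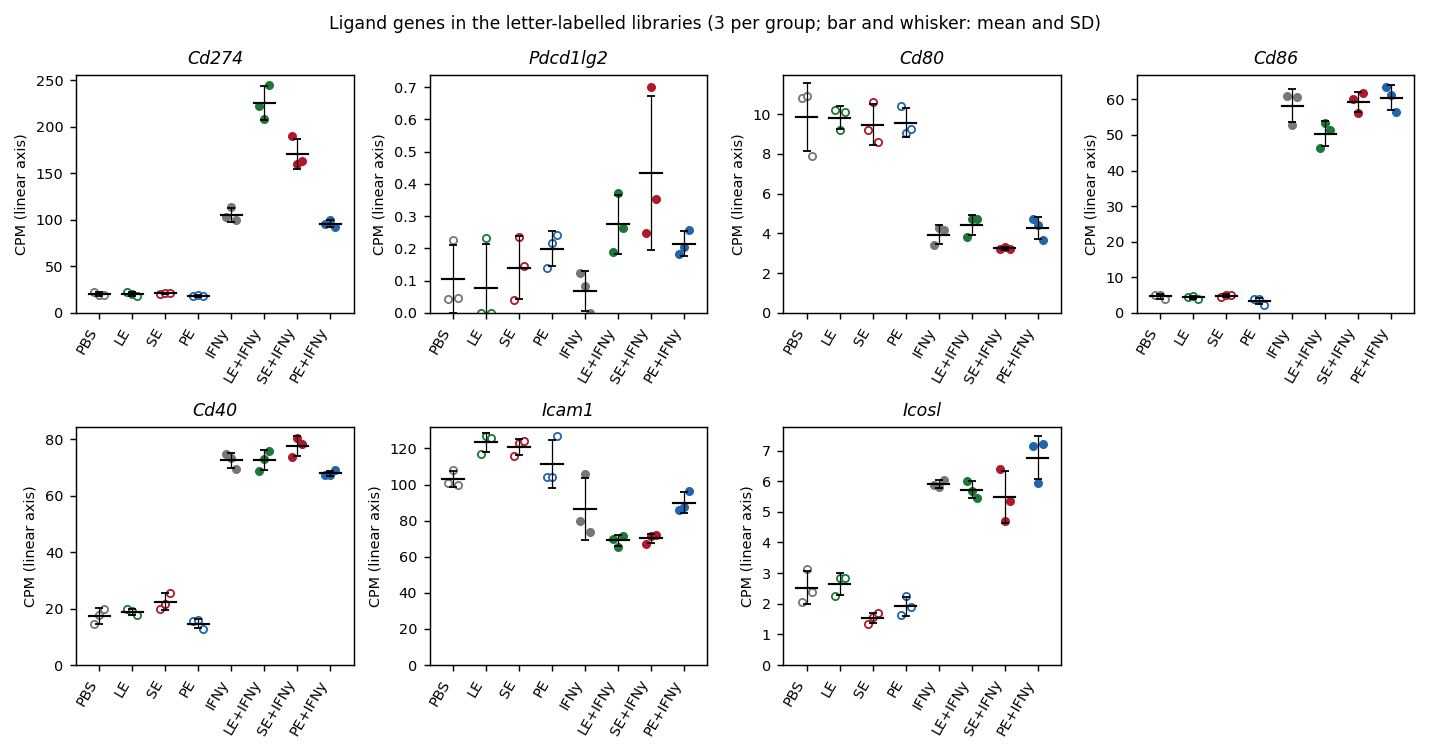
Level of each of the 7 genes (vertical axis, CPM, linear from 0) in the 24 letter-labelled libraries by group (horizontal axis). Points are libraries, open without and filled with IFN-γ, and the bar and whisker give the mean and SD of 3, with whiskers cut at 0. Cd274 stood at 209 to 245 CPM in LE+IFNy and at 92.5 to 100.0 CPM in PE+IFNy.

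Cd274 encodes PD-L1, the ligand that switches down T cells through PD-1. It stood at 22.2, 18.8 and 19.4 CPM in the PBS libraries and at 103, 114 and 99.4 CPM in IFNy. No library of one group reached the other, and the rise was 2.40 ± 0.089 on the log2 scale (SE, n = 3 per group; 5.29-fold, edgeR adjusted p = 2.68e-09). Without IFN-γ the peptides left it in a narrow band: the 12 libraries of PBS, LE, SE and PE ran from 17.6 to 22.2 CPM with a median of 19.8. With IFN-γ the groups parted. The LE+IFNy libraries held 223, 209 and 245 CPM, the SE+IFNy libraries 190.0, 160.0 and 163 CPM, and the PE+IFNy libraries 95.1, 100.0 and 92.5 CPM. In order of level LE+IFNy and SE+IFNy stood clear of each other and of IFNy, while IFNy and PE+IFNy overlapped.

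Model A of the study sets each peptide with IFN-γ against IFN-γ alone, which asks what a peptide adds to the activated state. In this comparison Cd274 rose with LE by 1.11 ± 0.073 log2 (n = 3; 2.16-fold, edgeR adjusted p = 2.07e-09), the single call among the 6 genes tested where 15.5% of all genes were called. With SE it rose by 0.73 ± 0.073 log2 (1.65-fold, edgeR adjusted p = 6.76e-07), again the single call, against 7.39% of all genes. With PE the difference was -0.11 log2 (95% interval -0.26 to 0.05, edgeR adjusted p = 0.361) and 0 of the 6 genes were called by edgeR, with 0 at an unadjusted p below 0.05 and 0 by DESeq2, against 0.629% of all genes. Leaving out any replicate or library kept the LE difference between 1.02 and 1.22 and the SE difference between 0.62 and 0.82, called in each of 15 fits. The median of the 6 genes was -0.01 with LE, -0.01 with SE and 0.08 with PE, so Cd274 alone carried the calls.

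**Figure D2:**
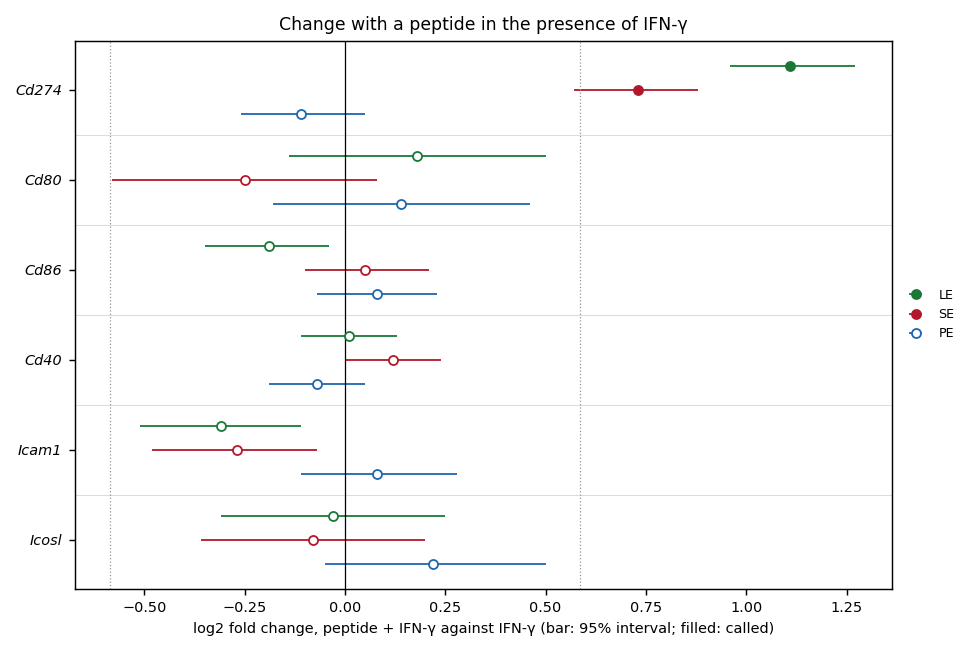
Change of the 6 tested genes with each peptide in the presence of IFN-γ (horizontal axis, log2 fold change against IFN-γ alone; bars, 95% intervals). Filled points were called, dotted lines mark a fold of 1.5, and Cd274 with LE (1.11) and with SE (0.73) are the filled ones.

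The peptides were then set against one another, 3 pairs with IFN-γ in both groups. The p-values printed were adjusted over genes and pairs. Calls and shares of all genes used p-values adjusted over genes within each pair. Cd274 was higher with LE than with PE by 1.22 log2 (95% interval 1.07 to 1.38; 2.33-fold, edgeR adjusted p = 1.46e-09; 21.6% of all genes called) and higher with SE than with PE by 0.83 log2 (0.68 to 0.99; 1.78-fold, edgeR adjusted p = 1.07e-07; 7.59% called). Between LE and SE it differed by 0.39 log2 (0.24 to 0.54; 1.31-fold, edgeR adjusted p = 0.000275), past the p threshold but below the fold minimum. That pair gave 0 called genes of 6 with edgeR, 3 at an unadjusted p below 0.05 and 0 with DESeq2 (4.93% of all genes called). The same pair differed for Cd80 by 0.43 log2 (0.11 to 0.76; 4.42 against 3.25 CPM, edgeR adjusted p = 0.0299) and for Cd86 by -0.25 log2 (-0.40 to -0.09; 50.4 against 59.3 CPM, edgeR adjusted p = 0.0108), also below the fold minimum. These comparisons share their libraries with Model A and are not independent of it.

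Whether a peptide changed the response to IFN-γ was tested as an interaction, the IFN-γ change with the peptide minus that without. For Cd274 it was 1.07 ± 0.115 log2 with LE (edgeR adjusted p = 2.55e-07), called in all 27 fits that left out a replicate or library, at 0.94 to 1.21. With SE it was 0.57 ± 0.115 log2 (edgeR adjusted p = 0.000998), just under the fold minimum, and 8 of 27 such fits took it over. With PE it was -0.09 log2 (95% interval -0.33 to 0.15). The LE interaction was called for 18.9% of all genes, that of SE for 7.96% and that of PE for 0%, where 2 of the 6 genes had an unadjusted edgeR p below 0.05. Set against the same peptide without IFN-γ (Model B of the study), Cd274 rose by 3.47 ± 0.083 log2 with LE (11.1-fold), 2.97 ± 0.082 with SE (7.83-fold) and 2.32 ± 0.0826 with PE (5.01-fold), with edgeR adjusted p of 3.45e-18, 5.58e-17 and 3.47e-15.

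Pdcd1lg2 encodes PD-L2, the second ligand of PD-1. It gave 1, 5 and 1 counts in the PBS libraries, 3, 2 and 0 in IFNy, 5, 10 and 6 in LE+IFNy, 6, 16 and 9 in SE+IFNy and 4, 5 and 6 in PE+IFNy. Peptide alone gave 0, 5 and 0 counts with LE, 1, 4 and 3 with SE and 3, 5 and 4 with PE. In CPM every peptide library with IFN-γ was above every IFNy library, and these peptide groups overlapped one another. IFNy had the lowest mean of the 8 groups (0.0682 CPM). PE+IFNy (0.214 CPM) overlapped PE alone (0.200 CPM) and LE+IFNy overlapped LE alone, while SE+IFNy lay above SE alone. Pooled over 3 libraries, the ratio to IFNy was 5.97 with SE (exact 95% interval 2.30 to 19.7), 3.87 with LE (1.42 to 13.1) and 3.01 with PE (1.04 to 10.6), intervals that cover counting error only. With no low-count filter edgeR called the SE difference (2.55 log2, adjusted p = 0.00411) and not that of LE (1.90, adjusted p = 0.0515) or PE (1.56, adjusted p = 0.315). The edgeR adjusted p-values of that fit are on another scale than those of the filtered fits. For Cd274 with IFN-γ it was 1.2e-129 in place of 2.68e-09, and for Icosl with SE alone 0.132 in place of 0.0784. The SE call of Pdcd1lg2 therefore carries little weight. An antisense RNA, A930007I19Rik, overlaps Pdcd1lg2 and gave 36, 39 and 41 counts in IFNy and 102, 96 and 68 in LE+IFNy. Whether counting used strand is not stated in the sources used here, so reads of the pair cannot be told apart. Antisense genes overlapping Cd274 and Icam1 in the annotation (AC119228.1 and Gm47079) were not analysed here.

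Cd86 and Cd80 encode B7-2 and B7-1, which share the receptors CD28 and CTLA-4, and they went opposite ways. Cd86 stood at 4.94, 5.12 and 3.89 CPM in PBS and 61.0, 52.9 and 60.7 CPM in IFNy, a rise of 3.66 ± 0.121 log2 (12.6-fold, edgeR adjusted p = 1.36e-09). The 12 libraries without IFN-γ reached at most 5.12 CPM and the 12 with it began at 46.4 CPM. Cd80 stood at 10.8, 10.9 and 7.88 CPM in PBS and 3.40, 4.25 and 4.15 CPM in IFNy, a fall of -1.31 ± 0.179 log2 (edgeR adjusted p = 0.000151). Its 12 libraries without IFN-γ (7.88 to 10.9 CPM) and 12 with it (3.20 to 4.72 CPM) did not overlap either. Per base of exon the ratio of Cd86 to Cd80 was 0.479 ± 0.0189 in PBS (SD, n = 3) and 15.2 ± 2.79 in IFNy, and 11.6 ± 0.618, 18.5 ± 1.28 and 14.5 ± 1.11 in LE+IFNy, SE+IFNy and PE+IFNy. The ratio of Cd274 to Cd86, also per base, was 4.43 ± 0.661 in PBS, 1.84 ± 0.282 in IFNy, 4.55 ± 0.512 in LE+IFNy, 2.92 ± 0.266 in SE+IFNy and 1.61 ± 0.078 in PE+IFNy. Its LE+IFNy libraries (3.95 to 4.86) lay above those of SE+IFNy (2.67 to 3.20), and those above IFNy (1.66 to 2.17). Both ratios were chosen after the levels were seen and are given without a test.

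With a peptide on top of IFN-γ, neither B7 gene was called. Cd86 differed from IFNy by -0.19 log2 with LE (95% interval -0.35 to -0.04, edgeR adjusted p = 0.0359), 0.05 with SE (-0.10 to 0.21) and 0.08 with PE (-0.07 to 0.23). Cd80 differed by 0.18 with LE (-0.14 to 0.50), -0.25 with SE (-0.58 to 0.08) and 0.14 with PE (-0.18 to 0.46). In Model B all 6 tested genes were called with LE (4 higher, 2 lower; 35.1% of all genes, 19.1% higher and 15.9% lower) and with SE (4 higher, 2 lower; 26.3%, 15.1% and 11.3%), and 5 with PE (4 higher, 1 lower; 21%, 12.1% and 8.82%). Cd86 rose by 3.52, 3.57 and 4.11 log2 with LE, SE and PE and Cd80 fell by 1.17, 1.58 and 1.22 log2, with edgeR adjusted p of at most 1.24e-07. Neither gene had a called interaction.

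**Figure D3:**
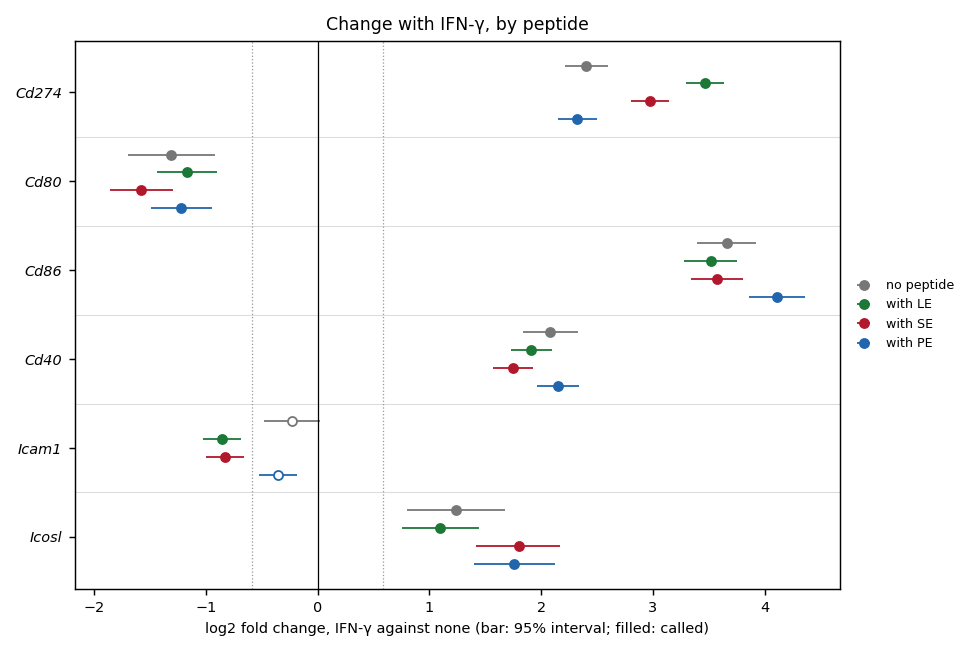
Change of the 6 tested genes with IFN-γ (horizontal axis, log2 fold change; bars, 95% intervals) without peptide and with LE, SE or PE. Filled points were called; for Icam1 the open points are without peptide (-0.23) and with PE (-0.36), while LE (-0.86) and SE (-0.83) are filled.

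Icosl encodes the ligand of ICOS. Per base of exon it was the lowest of the tested genes in the groups without IFN-γ, at 0.547 ± 0.117 RPKM in PBS (CPM divided by the exon length in kilobases). In the groups with IFN-γ the mean of Icosl lay above that of Cd80, at 1.28 against 1.06 RPKM in IFNy. It stood at 2.07, 3.13 and 2.39 CPM in PBS and 5.86, 5.81 and 6.04 CPM in IFNy, a rise of 1.24 ± 0.200 log2 (2.36-fold, edgeR adjusted p = 5e-04). Without IFN-γ, the SE libraries (1.35, 1.58 and 1.69 CPM) lay below all PBS libraries, a difference of -0.65 log2 (95% interval -1.15 to -0.14, edgeR adjusted p = 0.0784). That difference was called with a replicate block (-0.63 log2, edgeR adjusted p = 0.0486) and with library totals without TMM (-0.72 log2, edgeR adjusted p = 0.0495). None of the peptides moved it past the threshold beside IFN-γ, with differences of -0.03, -0.08 and 0.22 log2 for LE, SE and PE.

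Cd40 encodes the receptor through which T cell help reaches the macrophage. It stood at 14.4, 17.6 and 19.9 CPM in PBS and 74.7, 73.5 and 69.6 CPM in IFNy, a rise of 2.08 ± 0.112 log2 (4.24-fold, edgeR adjusted p = 7.44e-08). Every one of the 12 libraries with IFN-γ lay between 67.3 and 80.6 CPM. Against IFNy the differences were 0.01 log2 with LE (95% interval -0.11 to 0.13), 0.12 with SE (0.00 to 0.24) and -0.07 with PE (-0.19 to 0.05), none called, and all 3 intervals lie within a fold of 1.5. Without IFN-γ, SE libraries held 19.8, 21.8 and 25.7 CPM against 14.4, 17.6 and 19.9 CPM in PBS, overlapping (0.45 log2, edgeR adjusted p = 0.0376, below the fold minimum).

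Icam1 encodes the adhesion molecule bound by the integrins LFA-1 and Mac-1. Per base of exon it led the 7 genes in PBS, at 23.6 ± 0.969 RPKM beside 5.56 ± 0.500 RPKM of Cd274, but in LE+IFNy Cd274 stood at 62.3 ± 4.99 RPKM, Cd40 at 21.3 and Icam1 at 15.8. Icam1 held 101, 108 and 99.9 CPM in PBS and 79.6, 106 and 73.9 CPM in IFNy, with overlapping libraries and a difference of -0.23 log2 (95% interval -0.48 to 0.02, edgeR adjusted p = 0.136). LE alone gave 117, 127 and 126 CPM, all above PBS (0.31 log2, edgeR adjusted p = 0.218), and SE alone 116, 123 and 124 CPM (0.31 log2, edgeR adjusted p = 0.0332, below the fold minimum). With IFN-γ the order turned. LE+IFNy gave 70.1, 65.6 and 71.4 CPM and SE+IFNy 67.3, 71.4 and 72.0 CPM, below every IFNy library, by -0.31 log2 (edgeR adjusted p = 0.0112) and -0.27 log2 (edgeR adjusted p = 0.0336), neither past the fold minimum. Leaving out a replicate or library gave -0.43 to -0.11 log2 with LE and -0.38 to -0.11 with SE. The edgeR adjusted p then reached 0.281 for either peptide.

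Taken as a response to IFN-γ, Icam1 fell with LE by 0.86 ± 0.0824 log2 and with SE by 0.83 ± 0.0825 log2 (edgeR adjusted p = 1.21e-08 and 3.25e-08), while with PE the difference was -0.36 log2 (edgeR adjusted p = 0.000986), under the fold minimum. The interaction was -0.63 ± 0.143 log2 for LE (edgeR adjusted p = 0.00119) and -0.59 ± 0.143 log2 for SE (edgeR adjusted p = 0.00469), both called. Replicate 2 of IFNy, at 106 CPM, carries weight here. Without it the values were -0.46 log2 (edgeR adjusted p = 0.00492) and -0.42 log2 (edgeR adjusted p = 0.0187), under the fold minimum and neither called. The LE interaction was called in 25 of 27 fits that left out a replicate or library, failing also without replicate 2 of every group (-0.45 log2), and the SE interaction in 20 of 27, failing also without replicate 1 or 2 of every group, without PBS replicates 1 or 3, SE replicate 3 or SE+IFNy replicate 1 (-0.48 to -0.64 log2).

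Without IFN-γ the peptide differences of the 6 tested genes from PBS ran from -0.65 log2 (Icosl with SE) to 0.45 log2 (Cd40 with SE). Pdcd1lg2 was not tested. Of the 6 tested, 0 were called by edgeR or by DESeq2 with LE, SE or PE, where 0.0242%, 1.92% and 3.13% of all genes were called. At such low shares, 0 of 6 says little about these genes. With a replicate block, or with library totals without TMM, the count with SE was 1 (Icosl, lower). An unadjusted edgeR p below 0.05 was reached by 1 gene with LE, 3 with SE and 1 with PE.

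Genes that work with these ligands were counted by list. Of all genes tested in Model A, 9.58% were higher and 5.93% lower with LE, 5.01% and 2.38% with SE, and 0.448% and 0.181% with PE. Of 28 other costimulatory and coinhibitory ligands, 19 were tested beside IFN-γ: with LE 3 rose and 2 fell, with SE 3 rose and none fell, and with PE 0 were called, and the list's medians were -0.02, 0 and 0.12 log2. The 3 that rose with LE were Ulbp1 (1.86 log2) and H60b (0.92), ligands of the NKG2D receptor of NK and T cells, and Clec2d (1.11), a ligand of an NK receptor. All 3 rose with SE too, by 0.84, 0.73 and 1.16 log2. Those that fell with LE were Nectin2 (-0.69), an adhesion molecule bound by TIGIT, and Cd276 (-0.61), which encodes B7-H3. All 4 integrin genes whose products bind ICAM-1 rose with LE, Itgax by 1.07, Itgam by 0.80, Itgb2 by 0.74 and Itgal by 0.60 log2. With SE 1 of them, Itgb2, rose (0.79 log2) and with PE 0 did. Set directly against each other, LE and SE gave 0 called among these 4 (4.93% of all genes called). Against PE, 4 were higher with LE (12.7% of all genes higher) and 3 with SE (5.25%). Of 5 CD40 adaptors Traf1 alone rose with LE (1.19 log2) and SE (1.43), and 0 were called with PE. Among 14 regulators of PD-L1, 4 rose and 1 fell with LE, 1 rose and 1 fell with SE and 0 were called with PE. The largest were Myc, a transcription factor of growth, by 2.49 log2 with LE and 1.83 with SE, Hif1a, the hypoxia factor, by 0.97 with LE, and Jak1, an IFN-γ receptor kinase, by 0.78 with LE. Of the cytokine signalling inhibitors, Socs3 rose (0.83) and Socs1 fell (-0.73) with LE, and the gene that fell with SE was Irf1 (-0.64). Genes said to rise or fall passed the same edgeR thresholds, and the Model A medians of all genes lay at -0.01, -0.01 and 0 log2.

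The 10 MHC genes for antigen presentation all rose with IFN-γ (median 2.55 log2). Beside IFN-γ, 0 were called with LE or PE and 1 fell with SE (Ciita, the MHC class II transactivator, -0.65 log2). Between peptides, 4 were lower with LE than with PE, where 8.94% of all genes were lower: H2-Aa (-0.93 log2), H2-Ab1 (-0.92) and H2-Eb1 (-0.85), which encode class II chains, and Cd74 (-0.65), the invariant chain. Cd274 was higher in LE+IFNy than in PE+IFNy by 1.22 log2 in the same libraries. With SE, 3 of the 10 MHC genes were lower than with PE, where 2.34% of all genes were lower. Between LE and SE 0 of the 10 were called (4.93% of all genes). The medians of the 10 were -0.22 log2 for LE against PE and -0.34 log2 for SE against PE. Of 20 IFN-γ targets, beside 15.5%, 7.39% and 0.629% of all genes called with LE, SE and PE, 8 rose and 1 fell (Socs1) with LE, 2 rose and 2 fell (Irf1 and Ciita) with SE, and 0 were called with PE. Gbp2, a guanylate-binding protein, rose by 1.47 log2 with LE and 1.02 with SE, Cxcl9, a chemokine for T cells, by 1.68 and 1.75, and Gbp4 by 1.22 with LE. Of 11 counter-receptors found on T cells 5 were tested: 3 rose with LE (Itgal, Itgb2 and Cd28, the last by 0.82 log2), 1 with SE (Itgb2) and 0 with PE. Tnfrsf4, which encodes the receptor OX40, stood at 0.354 CPM with LE and 0.672 CPM with PE (-0.93 log2, called). Nectin2, Cd276, Socs3, Socs1, Irf1, Ciita and Cd74 were named after their values were seen.

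By the shape of the 8 group means, the genes nearest to Cd274 among 11244 were Clec7a, a β-glucan receptor (root-mean-square difference 0.11 log2), A530040E14Rik (0.16) and Ifit2, an interferon-induced gene (0.20), beside a median of 1.45 over all genes and a range of 3.53 log2 in Cd274 itself. Nearest to Cd86 were Phf11a (0.15), Il6 (0.21) and Rnase6 (0.26). For Cd40 they were Aqp9 (0.05), Tmem140 (0.08) and Bend6 (0.11). Icosl lay nearest to Pik3ip1 (0.19), Ddr2 and Gm15433, Cd80 to mt-Nd4, Slco4a1 and Tpcn1 (0.11 to 0.12), and Icam1 to Akr1b3, Nat6 and Bdh2 (0.05 to 0.06), where Icam1 itself ranged over 0.87 log2. These are descriptions over 8 groups of the same 24 libraries.

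In the HLA-labelled libraries Cd274, Cd86, Cd40 and Icosl followed the state of the IFN-γ targets and not the label. Cd274 stood at 277, 284 and 252 CPM in those labelled LE and 235, 201 and 167 CPM in those labelled PE, but at 23.2, 20.8 and 23.7 CPM in those labelled IFNy and 21.9, 25.0 and 21.8 CPM in those labelled SE+IFNy. The libraries labelled PBS held 26.3, 24.3 and 33.5 CPM. Cd86 showed the same split, with 67.4, 59.4 and 68.6 CPM under the label LE and 7.20, 8.06 and 7.56 CPM under the label IFNy. In the deposited table each set of 3 letter-labelled columns is followed by 3 HLA-labelled columns whose labels give another group: those after LE+IFNy are labelled PE and those after SE+IFNy are labelled LE. Column order was not used to place any library. In the fit of these libraries by label, 0 of the 6 genes were called with IFN-γ by edgeR, in place of 5. The share of all genes called in that fit was not computed.

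**Figure D4:**
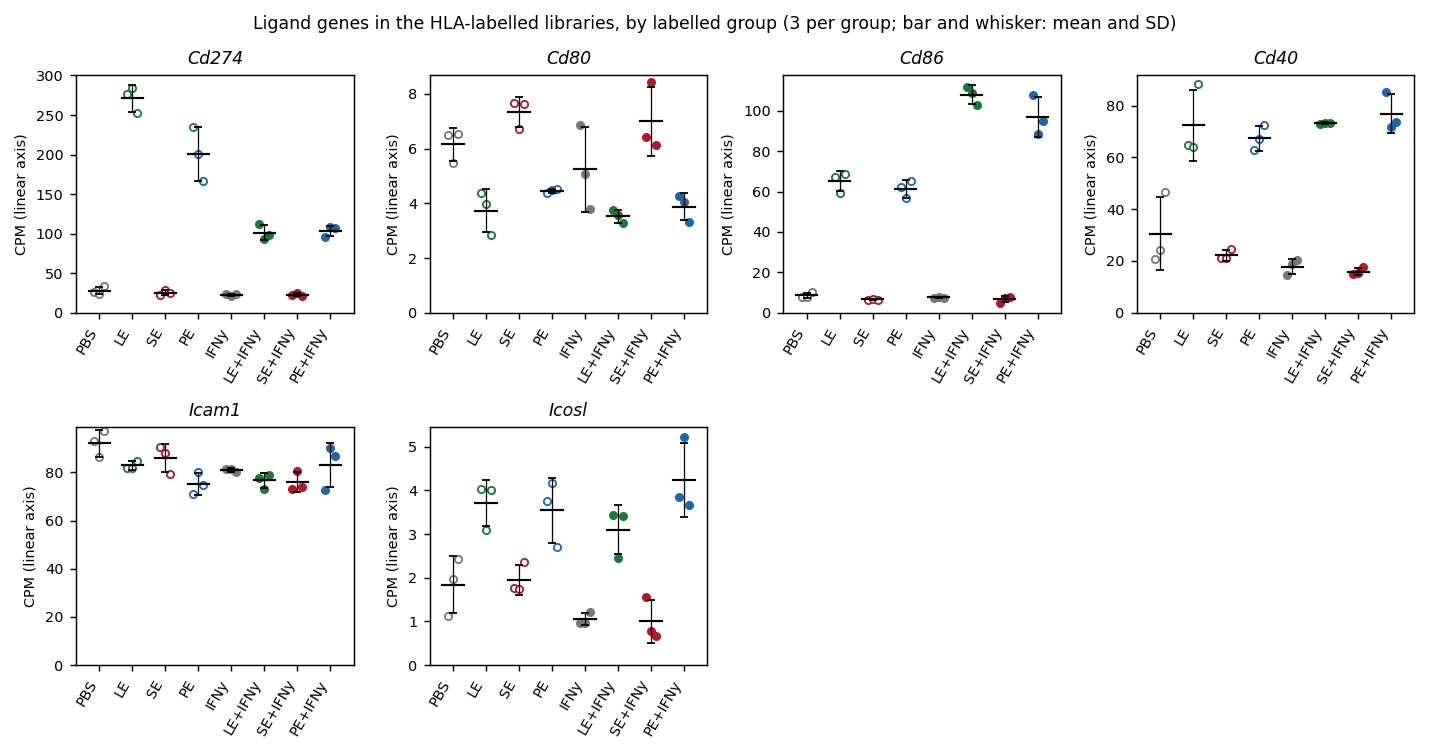
Level of the 6 tested genes (vertical axis, CPM, linear from 0) in the 24 HLA-labelled libraries by labelled group (horizontal axis), drawn like the letter-labelled plot. Cd274 is at 252 to 284 CPM in libraries labelled LE and at 20.8 to 23.7 CPM in those labelled IFNy.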

How the data were processed

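RNA was extracted from RAW264.7 cells and the authors sequenced 48 libraries, with featureCounts used to assign uniquely aligned reads to GENCODE genes on GRCm38.p5 (the authors' notes also name DESeq2 1.16.1 and R 3.4.1). The deposited table holds raw counts, whole numbers per gene and library, not normalised. The aligner and the strand setting of counting are not given in the sources used here. From these counts, levels were computed as CPM of the library total and per length as RPKM over exons of GENCODE M21, a later annotation than the one counted. Differences were tested with the quasi-likelihood F test of edgeR 4.0.16 in R 4.3.3 (limma 3.58.1) after TMM scaling and filterByExpr, on letter-labelled libraries (IFNy and PBS alone for the IFN-γ effect, 4 groups for peptides alone and for Model A with the pairs, 6 for Model B and 8 for interactions), with p-values adjusted over all genes tested. A call needed an adjusted p below 0.05 and a fold above 1.5, and the SE was taken as the log2 fold change divided by the root of F. Scripts were tested on simulated counts. DESeq2 1.42.0, RLE scaling, library totals without TMM, no low-count filter, a replicate block, the HLA-labelled libraries alone or with the others, and leaving out each replicate and library were tried as alternatives. All 1128 pairs of libraries differed beyond sampling noise (lowest chi-square per degree of freedom 3.89). Genes in the lists other than the 7 were to be named if called in Model A or between peptides, at most 3 a list by size of change. Every gene of the integrin list was named, and the counter-receptor list also went past that limit. Genes named after their values were seen are further exceptions. Likeness used TMM-scaled log2 CPM (prior count 2) of genes of at least 1 CPM. The members and lists were chosen with earlier results of these data known. Gene names read as dates in 26 rows, and none is used. Promoter sequences come from RefSeq.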

Additional observations from a re-analysis of the deposited data

Results flagged for a closer look

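The change with IFN-γ differed between peptide and PBS, by the interaction test of edgeR, for Cd274 with LE (1.07 log2, adjusted p = 2.55e-07) and for Icam1 with LE (-0.63 log2, adjusted p = 0.00119) and SE (-0.59 log2, adjusted p = 0.00469). For Icam1 both calls depend on replicate 2 of IFNy. Without it they were -0.46 log2 (edgeR adjusted p = 0.00492) and -0.42 log2 (edgeR adjusted p = 0.0187), under the fold minimum and not called. The SE interaction was called in 20 of 27 fits that left out a replicate or library, and that of LE in 25.

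The HLA-labelled libraries, outside the comparisons of the letter-labelled ones, gave a signal where the labels give no IFN-γ. Libraries labelled LE exceeded those labelled PBS by 3.38 log2 for Cd274, 3.03 for Cd86, 1.34 for Cd40 and 1.14 for Icosl. Libraries labelled PE exceeded them by 2.88 log2 for Cd274, 2.87 for Cd86, 1.18 for Cd40 and 1.01 for Icosl. Both sets held the IFN-γ targets at the level of IFN-γ treatment, against their label, so no effect of peptide alone can be read from them. In the letter-labelled libraries the differences from PBS were 0.04 log2 (LE) and -0.04 (PE) for Cd274. For Cd86 they were -0.06 (LE) and -0.39 (PE). Groups of 3 libraries were not tested for a library far from the others.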

How the results depend on the processing

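DESeq2 and RLE scaling gave the same counts of called ligand genes as reported: 5 with IFN-γ, 0 with peptides alone, 2 in Model A, 2 between peptides, 17 in Model B and 3 interactions. With no low-count filter Model A gave 3, Pdcd1lg2 with SE (2.55 log2) being added, and the other counts were the same. That added call rests on 6, 16 and 9 counts against 3, 2 and 0, and adjusted p-values without the filter are on another scale. Leaving out a replicate or a library gave 5, 0, 2, 2 and 17, and 2 to 4 interactions, where Cd274 with SE (0.57 log2 with all libraries) was called in 8 fits (0.60 to 0.71) and Icam1 lost its LE or SE interaction in 7 (-0.42 to -0.64). Library totals without TMM gave 1 call with peptides alone (Icosl with SE, -0.72), called the SE interaction of Cd274 (0.63) and lost that of Icam1 (-0.54). The labels do not say that a replicate number marks a shared culture or day. Of 84 correlations between the deviations of same-numbered libraries, from -0.114 to 0.235, 24 exceeded 0.1. All 3 did so in 2 of 28 pairs of groups, LE with PE (0.124 to 0.175) and SE with PE (0.111 to 0.23), both without IFN-γ and not compared with each other here. LE with SE gave 0.1 to 0.187. As a hint from the data, each library was set against the 3 libraries of each other group. Its own number correlated best in 91 of 168 such comparisons, and in every other group at once for 1 of 24 libraries. An even spread over the 3 candidates would give fewer than 91. Whether a number marks a shared culture or day was not tested, and the main fits carry no replicate block. With a replicate block, 1 gene was called with peptides alone (Icosl with SE, -0.63, adjusted p = 0.0486), and no other call changed. By label, the HLA-labelled libraries alone gave 0 calls with IFN-γ, 9 with peptides alone, 9 in Model A, 10 between peptides, 4 in Model B and 5 interactions. Both series together gave 0 with IFN-γ, 0 in Model A, 0 between peptides, 0 in Model B and 0 interactions. Both series with the series as a block gave 0 with IFN-γ, 2 with peptides alone, 3 in Model A, 2 between peptides, 1 in Model B and 0 interactions. Shares of all genes called were not computed for the settings with HLA-labelled libraries, so these counts cannot be set against a background.

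Labels of the HLA-labelled libraries go against their IFN-γ targets in 12 of 24. Turned signs are listed where the gene was called in the letter-labelled fit or in the alternative, and other turned signs are left out. Those in the HLA-labelled libraries alone were as follows, in log2. IFNy minus PBS was -0.32 for Cd274, -0.17 for Cd86, -0.78 for Cd40 and -0.81 for Icosl. LE minus PBS was -0.62 for Cd80 and 3.03 for Cd86, and PE minus PBS was 2.88 for Cd274, 2.87 for Cd86, 1.18 for Cd40 and 1.01 for Icosl. LE+IFNy minus IFNy was -0.60 for Cd80, 3.80 for Cd86 and 1.58 for Icosl, and PE+IFNy minus IFNy was 2.21 for Cd274 and 2.11 for Cd40. LE+IFNy minus SE+IFNy was -1.03 for Cd80, 3.94 for Cd86 and 2.15 for Cd40. LE+IFNy minus PE+IFNy was -0.05 for Cd274, and SE+IFNy minus PE+IFNy was -2.15 for Cd274, 0.88 for Cd80 and -2.24 for Cd40. LE+IFNy minus LE was -1.54 for Cd274, -0.10 for Cd40 and -0.37 for Icosl. SE+IFNy minus SE was -0.14 for Cd274, -0.46 for Cd40 and -0.95 for Icosl, and PE+IFNy minus PE was -1 for Cd274. The LE interaction was -1.23 for Cd274 and 0.77 for Cd86, and the SE interaction of Icam1 was 0.01. With both series, SE+IFNy minus PE+IFNy was -0.07, PE+IFNy minus PE -0.18 and the LE interaction -1.32 for Cd274. With the series as a block the first was -0.71 and the last -1.29 for Cd274, while Cd86 gave 1.66 for LE minus PBS and 1.79 for LE+IFNy minus IFNy. The cause of the label mismatch was not tested. With 3 libraries a group, Pdcd1lg2 (at most 16 counts in a letter-labelled library) is limited by depth.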
